A study of Mus musculus with 20 samples.

Results

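Bile acid synthesis and conjugation were followed through 10 genes, picked by symbol for their known enzymatic roles, of the 53599 gene rows in the count tables. All 10 had a row in both tables, and 9 had counts in every library. The livers came from PPARα knockout mice (KO), which lack a fatty acid-sensing nuclear receptor, and from mice that express the human form of the receptor (hPPARa). From weaning, both drank water with 0.5% sucrose, either with 8 µM perfluorooctanoic acid (PFOA), a fluorinated surfactant that persists in the body, or without it (vehicle), for 6 to 7 weeks. All groups ate a diet with 51.8% of its energy from carbohydrate, 33.5% from fat and 14.7% from protein. The KO libraries were 3 from males and 3 from females on PFOA, and 3 from males and 1 from a female on vehicle. The hPPARa libraries were 3 from males and 2 from females on PFOA, and 2 from males and 3 from females on vehicle. Neither the strain nor the promoter driving the human receptor is stated in the labels. Nor do they state whether the libraries of a group are from different mice, and p-values therefore cover only the variation among these libraries, which may be technical.

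The liver turns cholesterol into bile acids along a classic route, opened by Cyp7a1 in the endoplasmic reticulum, and an alternative route, opened by Cyp27a1 in mitochondria and continued by Cyp7b1. Shared enzymes then reshape the sterol rings, peroxisomes shorten the side chain, and the products are joined to taurine or glycine before export into bile. Bile acids that return to the liver or reach the ileum repress Cyp7a1 through the receptor FXR (Nr1h4), its target SHP (Nr0b2), and the hormone FGF15, which acts on Fgfr4 and Klb in hepatocytes.

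Total counts ran from 14973673 to 17953860 per library. The members together took 0.154% to 0.369% of them. Levels below are CPM (counts scaled to a common library size) after TMM scaling over the 20 libraries. The hepatocyte marker Alb (albumin) was at 35528 CPM or more in every library. Of 8 neutrophil markers all but S100a8 stayed at or below 2.02 CPM, with the defining Ly6g at 0 in 17 libraries and Mpo in 15. S100a8, an inflammatory calcium-binding protein, had 87.8 to 325 CPM on PFOA and 0.252 to 0.540 CPM on vehicle in KO livers, and 2.85 to 8.48 CPM on PFOA and 0.122 to 0.277 CPM on vehicle in hPPARa livers. Of 5 ileal enterocyte markers the defining Fabp6 and Fgf15 were each at 0 in 19 libraries and Vil1 reached 5.53 CPM, whereas Slc10a2 had 8.11 to 53.8 CPM and Fabp2 50.4 to 198 CPM. In 3 KO libraries some transcripts of the other sex were found. The Y-linked gene Ddx3y stood at 4.06 CPM in KO female PFOA replicate 2 and at 1.86 CPM in KO female vehicle replicate 1. Xist, the RNA of the inactive X chromosome, stood at 30.8 CPM in KO male PFOA replicate 2, where female libraries had 425 to 873 CPM. No cut-off was set for naming these 3 libraries. Traces were not confined to them, as Ddx3y was at 0 in only 4 libraries, fewer than the female ones. In hPPARa females on vehicle each Y-linked gene checked had a count in some library. KO female vehicle replicate 1 also stood apart in cholangiocyte (bile duct cell) markers, whose sum over 7 genes was 243 CPM there, 51.6 to 71.8 CPM in KO males on vehicle and at most 47.1 CPM in all other libraries. Results of called members that rest on these 3 doubtful libraries are given with and without them. For members not called, values without them are given only in part. The exceptions are the effect of PFOA in KO females and its difference between the sexes in KO, which need the only KO female vehicle library. Without the 3 libraries the KO vehicle arm holds only males. PFOA effects in KO livers then come from males alone, while those in hPPARa livers still come from both sexes.

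Per kilobase of annotated exon, the order of the members by their median over the 20 libraries was Cyp2c70 (363 CPM per kb), Slc27a5 (287), Cyp27a1 (156), Cyp8b1 (97.1), Baat (77.3), Akr1d1 (54.1), Cyp7b1 (37.6), Cyp7a1 (27.9) and Cyp39a1 (3.26). Neighbours in this order overlapped in their ranges over the libraries, apart from Slc27a5 (208.1 to 392.3) and Cyp27a1 (117 to 200). The place of Cyp7a1 depended on the group, with 3.80 to 57.2 CPM per kb in hPPARa livers on PFOA and 107 to 160 CPM per kb in hPPARa livers on vehicle. Hsd3b7, the dehydrogenase that changes the sterol ring right after its 7α-hydroxylation, had 0 counts in all 20 libraries and could not be tested. In the GENCODE M21 annotation (GRCm38, not the build the authors used), 99.2% of its exonic bases lie in exons of other genes. These are Gm49388 on the same strand, also at 0 counts in every library, and 9430064I24Rik on the opposite strand, at 7 to 21 counts. None of the exonic bases of the other 9 members was shared (0%). The part of this overlap in the 0 counts was not tested, so nothing can be said here of Hsd3b7 expression.

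RefSeq promoter windows, which reach 250 bases before and 50 bases after the start, were at hand for 5 members (Cyp8b1, Cyp27a1, Hsd3b7, Akr1d1 and Cyp2c70) and not for the others. Those of Cyp8b1 and Cyp2c70 are shown because they share the letters of a site for a liver receptor at nearly the same distance from the start. Of the pair only Cyp2c70 was called lower on PFOA in hPPARa livers, which was known when they were picked. Their responses were not compared with each other, and the part of the site in either was not tested. Both carried CAAAGTCCA, a form of the site bound by HNF4A, the receptor that maintains hepatocyte identity, at position −67 in Cyp8b1 and −64 in Cyp2c70. On either strand, these letters were in 0.475% of 32851 such windows. The TATA box letters TATAAA, in 13.6% of windows, were at −31 in Cyp8b1 and, on the reverse strand, at −29 in Cyp2c70. Capitals mark these letters, and the sequences are on GRCm38.p6, at chr9:121916256-121916555 for Cyp8b1 and chr19:40187237-40187536 for Cyp2c70. Both genes lie on the minus strand of the chromosome, and each window is read 5′ to 3′ in the direction of its gene.
Cyp8b1: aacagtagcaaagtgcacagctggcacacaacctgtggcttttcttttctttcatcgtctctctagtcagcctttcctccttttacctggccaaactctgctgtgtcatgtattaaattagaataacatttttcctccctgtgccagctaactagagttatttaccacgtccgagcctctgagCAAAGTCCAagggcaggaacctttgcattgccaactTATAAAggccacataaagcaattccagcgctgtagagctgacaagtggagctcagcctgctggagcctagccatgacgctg
Cyp2c70: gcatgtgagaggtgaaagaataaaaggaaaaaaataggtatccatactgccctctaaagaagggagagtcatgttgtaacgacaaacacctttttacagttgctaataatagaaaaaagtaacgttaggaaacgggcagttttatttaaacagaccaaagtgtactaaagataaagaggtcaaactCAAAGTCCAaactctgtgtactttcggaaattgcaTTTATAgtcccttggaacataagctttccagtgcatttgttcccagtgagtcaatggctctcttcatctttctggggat
A nuclear receptor half-site, AGGTCA (16.3% of windows), was at −74 in Cyp2c70 and at −232 and −210 on the reverse strand in Akr1d1. CCAAT (37.4% of windows) was found in Cyp27a1, at −71 and −34 on the reverse strand. The NR5A2-type letters CAAGGTCA (1.56%), the E-box CACGTG (7.15%) and the D-box TTATGTAA (0.938%) were searched on both strands and were in none of the 5 windows. CAAGGTCA ends in AGGTCA, so those searches overlap. A match here is a description of letters, not of binding.

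**Figure D1:**
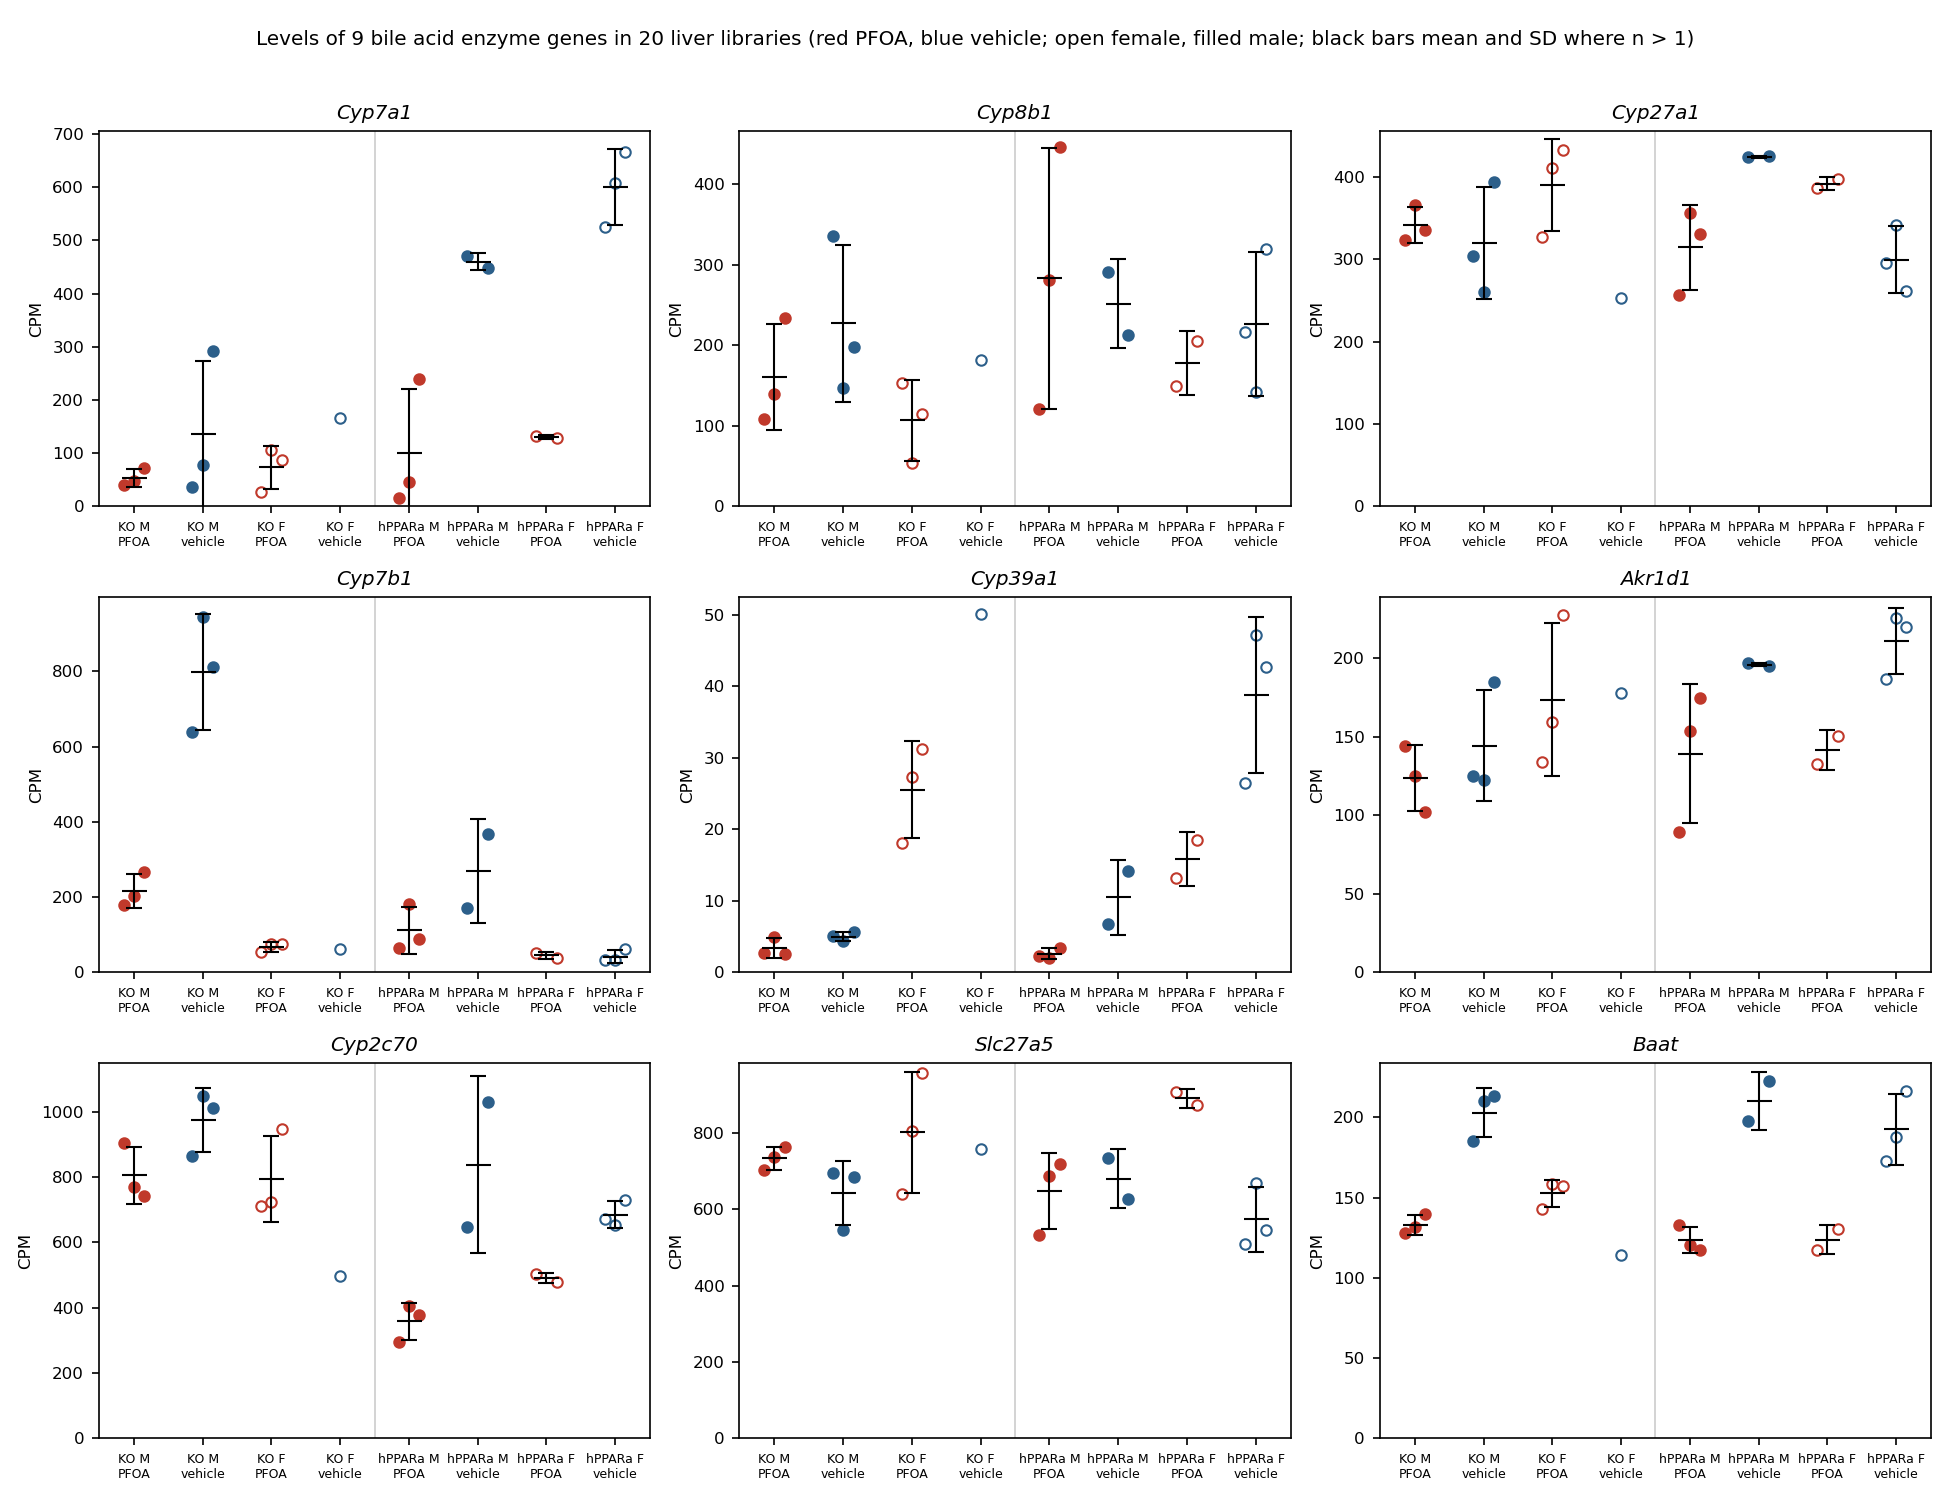
Levels of the 9 members with counts, in CPM, with 1 point per library; the groups run along the horizontal axis with PFOA left of vehicle, and black bars give the mean and SD where a group has more than 1 library (SD bars are cut at 0). For Cyp7a1, the 5 hPPARa PFOA libraries lie at or below 239 CPM, and all hPPARa vehicle libraries sit between 449 and 666 CPM.

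The first question was whether PFOA changed the members in livers with the human receptor. Over both sexes 5 of the 9 members tested were called lower, Cyp7a1, Cyp39a1, Akr1d1, Cyp2c70 and Baat, and none higher. The calls of Cyp7a1 and Akr1d1 depended on single libraries, as given below. Of all 14400 genes tested in this comparison 22.6% were called in either direction and 9.76% were lower. The members' median log2 fold change was −0.59, that of all genes −0.01. In bulk liver, fewer cells of a type and less RNA per cell cannot be told apart.

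Cyp7a1, the rate-limiting 7α-hydroxylase of the classic route, showed the lowest log2 fold change of the members on PFOA in hPPARa livers and the widest spread. On PFOA it had 15.9, 46.1 and 239 CPM in hPPARa males and 133 and 128 CPM in hPPARa females, against 471 and 449 CPM in males and 525, 608 and 666 CPM in females on vehicle. Every PFOA library lay under every vehicle library. The log2 fold change was −2.21 ± 0.66 (SE), or 4.61-fold lower (adjusted p = 0.0484, edgeR quasi-likelihood test). The call was lost on leaving out any of 8 of the 10 libraries in turn (adjusted p = 0.0742 to 0.131), the exceptions being hPPARa male PFOA replicates 1 and 3. Male PFOA replicate 3 held the highest PFOA value, and without it the log2 fold change within males was −3.89 (adjusted p = 0.00218), against −2.20 ± 0.96 (0.255) with it. Within females, whose own libraries are the same in both fits, the value without it was −2.22 (adjusted p = 0.00869). The estimates within males and within females were alike, at −2.20 and −2.21 ± 1.05 (adjusted p = 0.198), but with all libraries neither passed on its own.

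The spread of Cyp7a1 was wide in some groups and narrow in others. No group held more than 3 libraries, and a difference in spread between groups was not tested. The highest library exceeded the lowest by 15-fold in hPPARa males on PFOA and by 8.18-fold in KO males on vehicle. The corresponding ratio was 1.05 in hPPARa males and 1.27 in hPPARa females on vehicle. On PFOA it was 1.04 in hPPARa females, 1.82 in KO males and 3.86 in KO females. In the fit of all 20 libraries its biological coefficient of variation was 66.0%, at percentile 97.8 of the genes tested, whose median was 16.4%. Cyp7b1 (43.3%, percentile 91.9) and Cyp8b1 (40.6%, percentile 90.3) were also variable, whereas Baat (15.4%) and Slc27a5 (16.9%) lay near the median.

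Baat, which joins bile acid CoA esters to taurine or glycine, had the smallest adjusted p of the members. Its PFOA libraries read 133, 120 and 118 CPM in hPPARa males and 117 and 130 CPM in hPPARa females, against 198 and 223 CPM in males and 173, 188 and 217 CPM in females on vehicle. The arms were apart, with 123.7 ± 7.42 CPM on PFOA and 199.7 ± 20.5 CPM on vehicle (SD, n = 5 each). The log2 fold change was −0.71 ± 0.10 (adjusted p = 0.000186). Slc27a5, the bile acyl-CoA synthetase that makes the substrate of Baat, was not called, at 533 to 907 CPM on PFOA and 507 to 734 CPM on vehicle (log2 fold change 0.28 ± 0.15, adjusted p = 0.196).

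Cyp39a1, the 7α-hydroxylase of 24-hydroxycholesterol, fell by 1.6 ± 0.28 on the log2 scale (3.04-fold lower, adjusted p = 0.00292). It had 2.30, 1.98 and 3.43 CPM in hPPARa males and 13.2 and 18.5 CPM in hPPARa females on PFOA, against 6.76 and 14.2 CPM in males and 26.5, 47.2 and 42.7 CPM in females on vehicle. Within each sex the PFOA and vehicle libraries did not overlap. Cyp46a1, which makes 24-hydroxycholesterol and is best known from brain, was also lower (−1.32 ± 0.22, adjusted p = 0.00112).

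Cyp2c70, the enzyme that makes muricholic acids in mice, had 295, 404 and 378 CPM in hPPARa males and 502 and 480 CPM in hPPARa females on PFOA. On vehicle it had 646 and 1029 CPM in males and 671, 653 and 731 CPM in females, above all PFOA libraries. The log2 fold change was −0.86 ± 0.17 (adjusted p = 0.00282). Akr1d1, the 5β-reductase that bends the sterol ring, had 89.6 to 175 CPM on PFOA and 187 to 226 CPM on vehicle, again without overlap. Its log2 fold change was −0.54 ± 0.15 (adjusted p = 0.0217), and the call was lost without hPPARa female PFOA replicate 1 (0.0817), female PFOA replicate 2 (0.0521) or male vehicle replicate 1 (0.0523).

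The other 3 members were not called. Cyp8b1, the 12α-hydroxylase that sets the share of cholic acid, had 121 to 446 CPM on PFOA and 142 to 320 CPM on vehicle (log2 fold change −0.09 ± 0.38, adjusted p = 0.886). Cyp27a1, the mitochondrial sterol 27-hydroxylase, had 257 to 397 CPM on PFOA and 262 to 425 CPM on vehicle (−0.03 ± 0.15, adjusted p = 0.920). Cyp7b1, the oxysterol 7α-hydroxylase of the alternative route, had 39.2 to 182 CPM on PFOA and 31.8 to 368 CPM on vehicle (−0.59 ± 0.44, adjusted p = 0.380). Over both sexes the arms of all of them overlapped widely. Within each sex those of Cyp27a1 were apart, lower on PFOA in males and higher in females, as given below, but neither was called.

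Hepatocyte markers moved in the same direction as the members in hPPARa livers. Of 7 hepatocyte markers 5 were lower on PFOA and none higher, with a median log2 fold change of −0.73 against −0.59 for the members, and Ahsg (−1.09 ± 0.12) and Ttr (−0.91 ± 0.12), which encode secreted plasma proteins, led. Their summed level ran from 82972 to 120435 CPM on PFOA and from 109569 to 204913 CPM on vehicle. Circadian clock genes moved too, with 7 of 16 lower and 1 higher, and a summed level of 635 to 988 CPM on PFOA against 1003 to 1131 CPM on vehicle. Per1 (−1.0 ± 0.12), Hlf (−0.68 ± 0.12), Cry1 (−0.97 ± 0.18) and Dbp (−0.55 ± 0.15) were among those lower. The clock genes did not all go the same way, which their sum does not show. Clock had 27.7 and 35.0 CPM in hPPARa females on PFOA, against 17.9 and 14.7 CPM in hPPARa female vehicle replicates 1 and 2. Of 8 pericentral genes 1 was higher and 2 were lower, and of 8 periportal genes 1 was higher and 4 were lower. Of 7 Kupffer cell and macrophage markers 4 were lower and none higher (sums of 70.1 to 183 CPM on PFOA and 91.5 to 244 CPM on vehicle). Of 6 endothelial markers 4 were higher and none lower (181 to 251 CPM on PFOA and 167 to 222 CPM on vehicle), and of 6 stellate cell markers 2 were lower and none higher (171 to 256 CPM on PFOA and 214 to 358 CPM on vehicle). The share of counts from mitochondrially encoded genes was 9.07% to 12.9% on PFOA and 9.19% to 11.8% on vehicle in hPPARa males, and 6.62% to 6.89% on PFOA and 10.7% to 12.7% on vehicle in hPPARa females. The part of any of these lists, or of the mitochondrial share, in the members' changes was not tested.

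In KO livers the same exposure was followed without the receptor. There 2 of the 9 members were lower on PFOA, Cyp7b1 and Cyp39a1, and none higher. Of the 15334 genes tested 13.8% were called and 6.36% were lower. The median log2 fold change of the members was −0.29, that of all genes −0.02. Of the hepatocyte markers 2 of 7 were lower, with a summed level of 63764 to 85808 CPM on PFOA and 86511 to 103496 CPM on vehicle, and of the clock genes 2 of 16 were lower and 1 higher. Kupffer cell and macrophage markers were higher for 2 of 7 and lower for none, endothelial markers higher for 2 of 6 and lower for none, and stellate cell markers lower for 2 of 6 and higher for none. Pericentral genes were higher for 1 of 8 and lower for 2, and periportal genes higher for 0 of 8 and lower for 1. The mitochondrial share was 7.27% to 9.66% on PFOA and 8.80% to 14.0% on vehicle. Their part in the members' values was not tested. When the 3 doubtful libraries were left out the PFOA effect came from males alone. There 2 members were lower, Cyp7b1 and Baat, the same as within KO males with all libraries. Over all genes 630 were called in that fit, 190 of them lower, against 2113 called with all libraries. Of the lists above 1 hepatocyte, 0 clock and 0 stellate genes were then lower and 1 macrophage and 1 endothelial gene higher. Pericentral genes were higher for 1 and lower for 2 without those libraries, and periportal genes lower for 0.

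Cyp7b1 had the larger change. KO males had 178, 203 and 265 CPM on PFOA, against 638, 944 and 810 CPM on vehicle, with a wide gap between the arms. KO females had 52.7, 74.0 and 74.7 CPM on PFOA, against 62.7 CPM in the single vehicle library, which falls within the PFOA range. Over both sexes the log2 fold change was −1.34 ± 0.38 (adjusted p = 0.0474), but leaving out any of 9 of the 10 libraries ended the call (adjusted p = 0.0509 to 0.131), the exception being KO female vehicle replicate 1. Within males it was −1.88 ± 0.20, or 3.69-fold lower (adjusted p = 0.000205). Without the 3 libraries that held transcripts of the other sex the value, which then came from males alone, was −1.85 (adjusted p = 0.00358 for Cyp7b1 PFOA in KO males).

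Cyp39a1 had 2.63, 4.96 and 2.63 CPM in KO males and 18.1, 27.3 and 31.3 CPM in KO females on PFOA. On vehicle it had 5.07, 4.32 and 5.61 CPM in males and 50.1 CPM in the only female library. In males 1 PFOA library lay within the vehicle range. The log2 fold change was −0.74 ± 0.21 (adjusted p = 0.0377). The call ended on leaving out any of 6 of the 10 libraries (adjusted p = 0.0619 to 0.253), and the highest p was without KO female vehicle replicate 1, where the value was −0.56. Without the 3 libraries with transcripts of the other sex, and so from males alone, it was −0.92 (0.0896).

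Cyp7a1 was low and scattered in KO livers of both arms. It had 39.4, 48.3 and 71.7 CPM in KO males and 27.3, 105 and 87.3 CPM in KO females on PFOA, against 35.8, 77.6 and 293 CPM in males and 167 CPM in the only female library on vehicle. The arms overlapped, and the log2 fold change of −1.29 ± 0.64 did not pass (adjusted p = 0.225). Without KO male vehicle replicate 3, the library at 293 CPM, it was −0.56 (adjusted p = 0.527), and within KO males it was −1.34 ± 0.86 with that library and −0.09 without it. Without the 3 libraries with transcripts of the other sex, and so from males alone, it was −1.28 (0.612). Cyp2c70 had 712 to 946 CPM on PFOA and 498 to 1047 CPM on vehicle, a log2 fold change of 0.02 ± 0.17 (adjusted p = 0.962), and −0.24 without the 3 libraries (0.490). The 4 members Cyp8b1 (−0.59 ± 0.37), Akr1d1 (−0.16 ± 0.17), Cyp27a1 (0.27 ± 0.15) and Slc27a5 (0.15 ± 0.12) were not called, nor were they without the 3 libraries (−0.40, −0.22, 0.05 and 0.19 for Cyp8b1, Akr1d1, Cyp27a1 and Slc27a5).

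Baat was lower on PFOA in KO males, while in KO females it could be set only against 1 vehicle library. KO males had 128, 132 and 140 CPM on PFOA, against 185, 210 and 214 CPM on vehicle, and the arms were apart (log2 fold change −0.60 ± 0.10, adjusted p = 0.00347). KO females had 143, 158 and 157 CPM on PFOA, all above the 114 CPM of the single vehicle library (0.41 ± 0.15, adjusted p = 0.143). Over both sexes Baat was not called (−0.29 ± 0.16, adjusted p = 0.247). From males alone, it was called without KO female vehicle replicate 1 (−0.61, adjusted p = 0.00343) and without the 3 libraries with transcripts of the other sex (−0.60, adjusted p = 0.0339). That vehicle library is the one with the highest cholangiocyte markers. Over both sexes of KO 6 of 7 such markers were lower on PFOA, but within KO males, with 3 vehicle libraries, 0 of 7 passed, and within KO females, against that library, 5 of 7 did. With the 3 doubtful libraries left out, 0 of the 6 tested passed. Those lower over both sexes included Spp1 (−1.5 ± 0.27), Sox9 (−1.79 ± 0.41), Muc1 (−4.75 ± 0.97) and Krt19 (−4.93 ± 1.03). Their values without the 3 libraries were −1.20 for Spp1, −1.88 for Sox9, −1.79 for Muc1 and −1.63 for Krt19. The sum of the markers was 16.2 to 47.1 CPM on PFOA and 51.6 to 243 CPM on vehicle, and their part in the members' values was not tested. In hPPARa livers 0 of 6 passed, with sums of 16.2 to 46.5 CPM on PFOA and 30.9 to 39.0 CPM on vehicle.

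**Figure D2:**
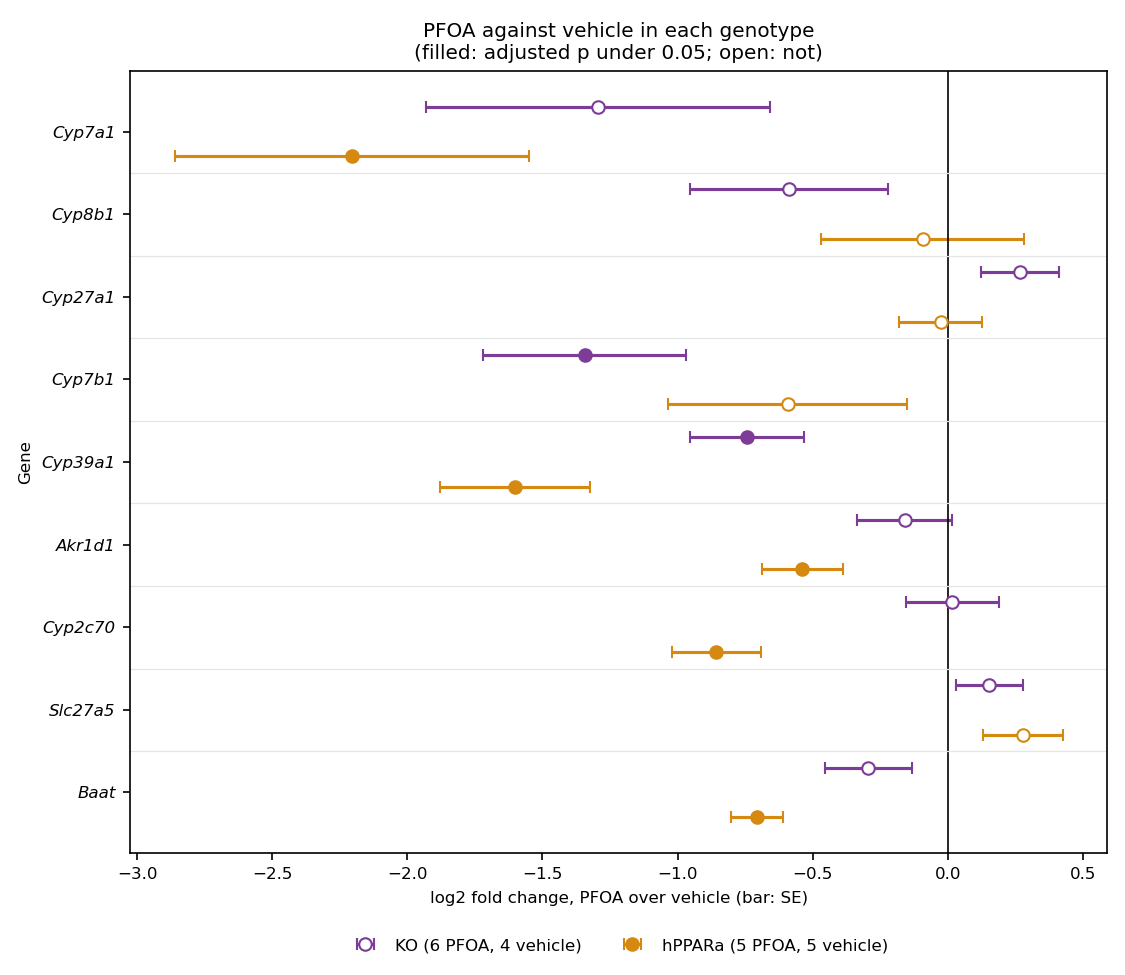
Log2 fold change of 9 members, PFOA over vehicle, with its SE, in KO (purple) and hPPARa (orange) livers; filled points passed an adjusted p of 0.05. Cyp7a1, Cyp39a1, Akr1d1, Cyp2c70 and Baat are filled in hPPARa, Cyp7b1 and Cyp39a1 in KO.

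Whether the response differed between genotypes was tested as the PFOA effect in KO minus that in hPPARa. None of the 9 members passed, where 1.17% of 15811 genes did (edgeR). The unadjusted p was under 0.05 for 3 of them, Cyp2c70 (0.87 ± 0.26, adjusted p = 0.116), Cyp39a1 (0.86 ± 0.38, adjusted p = 0.327) and Baat (0.41 ± 0.19, adjusted p = 0.345). DESeq2 called Cyp2c70 (adjusted p = 0.0367) and no other member. For Cyp7a1 the difference was 0.91 ± 0.93, so a difference of the size estimated was not detectable at this spread. The rest were Cyp8b1 (−0.50 ± 0.55), Cyp27a1 (0.29 ± 0.23), Cyp7b1 (−0.76 ± 0.62), Slc27a5 (−0.13 ± 0.20) and Akr1d1 (0.37 ± 0.25). Without the 3 doubtful libraries the KO effect came from males alone and the hPPARa effect from both sexes, so genotype and sex were mixed. None of the 9 passed there either, with 0.61 for Cyp2c70, 0.68 for Cyp39a1, 0.10 for Baat and 0.92 for Cyp7a1. The members called in hPPARa and not in KO were therefore not shown to respond differently.

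On PFOA, Cyp2c70 was higher in KO livers than in hPPARa livers, and it was the only member called of 9, against 14.9% of all genes. All 6 KO libraries (712 to 946 CPM) lay above all 5 hPPARa libraries (295 to 502 CPM). The log2 fold change was 0.96 ± 0.17 (adjusted p = 0.000622), and 1.0 without the 3 libraries with transcripts of the other sex (adjusted p = 0.000678 for Cyp2c70). The other members were Cyp7a1 (−0.87 ± 0.61), Cyp8b1 (−0.81 ± 0.36, unadjusted p = 0.0430, adjusted p = 0.161), Cyp7b1 (0.81 ± 0.39), Cyp39a1 (0.51 ± 0.26), Baat (0.22 ± 0.12), Cyp27a1 (0.09 ± 0.15), Akr1d1 (0.06 ± 0.16) and Slc27a5 (0.04 ± 0.13). Of the Kupffer cell and macrophage markers 6 of 7 were higher in KO on PFOA and none lower (5 of 7 without the 3 libraries), with sums of 152 to 258 CPM in KO and 70.1 to 183 CPM in hPPARa livers. Hepatocyte markers were higher for 2 of 7 and lower for 1, pericentral genes higher for 2 of 8, periportal genes higher for 1 of 8, endothelial markers lower for 1 of 6, and S100a8 higher (4.96 ± 0.37). Peroxisomal side-chain genes were lower for 5 of 8 and higher for 0 (6 of 8 lower without the 3 libraries). Of 14 bile acid transporters 2 were higher and 4 lower. The part of these lists in the value of Cyp2c70 was not tested.

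On vehicle, 0 of 9 members differed between KO and hPPARa in edgeR, against 3.77% of all genes. An unadjusted p under 0.05 was found for 2, Cyp7b1 and Cyp7a1. Cyp7b1 was 1.57 ± 0.46 on the log2 scale (adjusted p = 0.0736). DESeq2 called it (0.0113), as did edgeR without KO female vehicle replicate 1 (2.09, adjusted p = 0.0262) or hPPARa male vehicle replicate 2 (1.97, adjusted p = 0.0308). In males on vehicle it had 638 to 944 CPM in KO and 171 and 368 CPM in hPPARa livers, with no overlap. Cyp7a1 had 35.8 to 293 CPM in KO and 449 to 666 CPM in hPPARa livers on vehicle. These ranges did not overlap either, yet with the spread within KO the log2 fold change of −1.78 ± 0.72 did not pass (adjusted p = 0.188). The rest were Cyp39a1 (−0.35 ± 0.28), Akr1d1 (−0.32 ± 0.19), Cyp8b1 (−0.31 ± 0.42), Cyp27a1 (−0.20 ± 0.17), Baat (−0.19 ± 0.14), Slc27a5 (0.17 ± 0.15) and Cyp2c70 (0.09 ± 0.19). Again 0 of 9 passed without the 3 libraries, with 2.03 for Cyp7b1 (adjusted p = 0.0809) and −1.94 for Cyp7a1 (0.416). On vehicle, 4 of 7 cholangiocyte markers were higher in KO (0 of 6 without the 3 libraries) and 2 of 7 hepatocyte markers lower (0 of 7). Peroxisomal side-chain genes were lower in KO for 4 of 8 and higher for 0 (1 of 8 lower without the 3 libraries). The part of these lists was not tested. Both genotype comparisons use the libraries of the PFOA comparisons above.

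**Figure D3:**
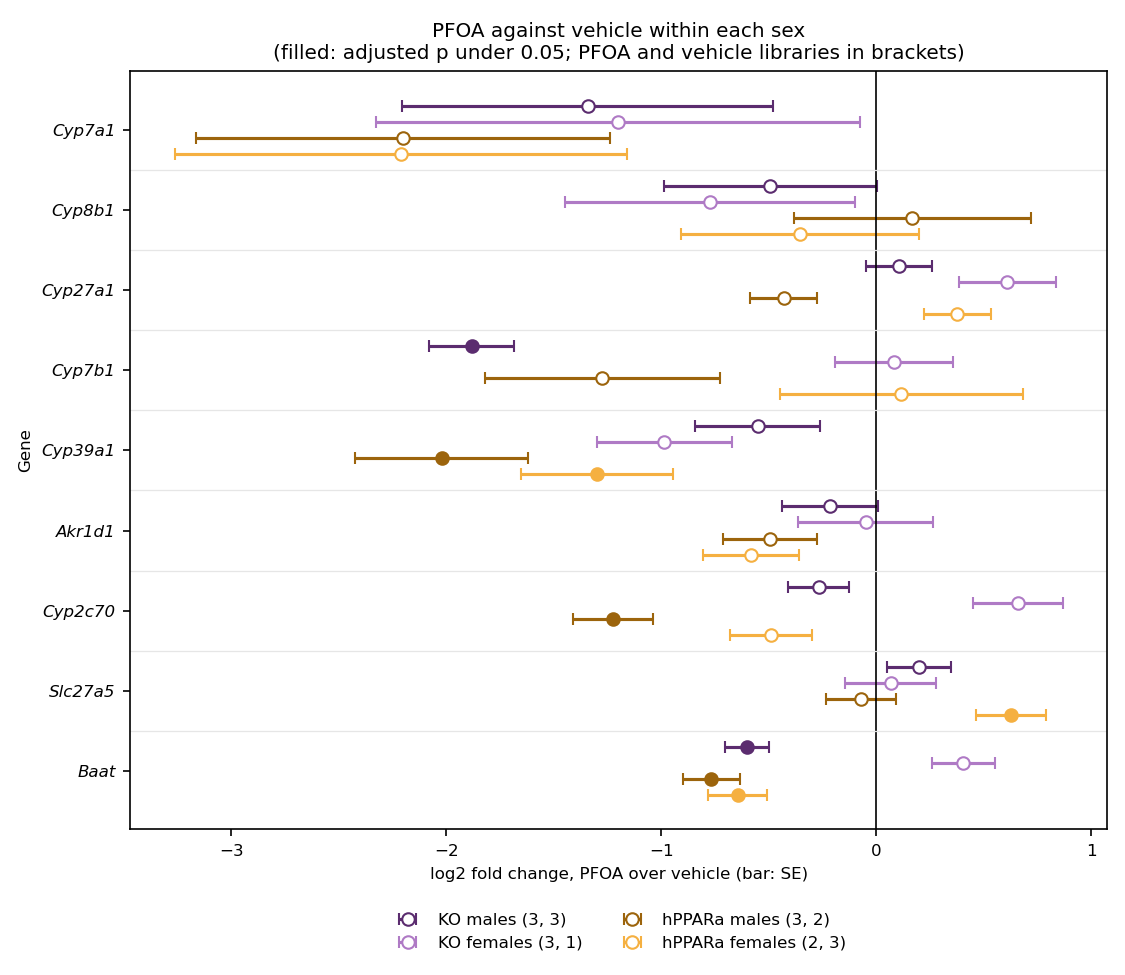
Log2 fold change of 9 members, PFOA over vehicle, with its SE, within males and females of each genotype; filled points passed an adjusted p of 0.05, and the numbers of PFOA and vehicle libraries stand in brackets. Cyp7b1 was −1.88 in KO males and 0.08 in KO females, whose vehicle arm is 1 library.

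Within sexes, PFOA lowered 3 of 9 members in hPPARa males, where 8.2% of all genes were called. These were Cyp2c70 (−1.22 ± 0.19, adjusted p = 0.00117), Baat (−0.77 ± 0.13, 0.00277) and Cyp39a1 (−2.02 ± 0.40, 0.0160). The Cyp39a1 call ended without male PFOA replicate 1 (0.0705), male PFOA replicate 2 (0.0534) or male vehicle replicate 2 (0.0922), and that of Baat without male vehicle replicate 2 (0.0530). In hPPARa females, with 18.4% of all genes called, Baat (−0.64 ± 0.14, adjusted p = 0.00658) and Cyp39a1 (−1.30 ± 0.35, 0.0354) were lower and Slc27a5 was higher (0.63 ± 0.16, 0.0188). Slc27a5 had 907 and 873 CPM in females on PFOA, against 507, 669 and 544 CPM on vehicle. That call was lost without either female PFOA library (adjusted p = 0.135 and 0.102) or female vehicle replicate 1 (0.0644). In the same females the Cyp39a1 call ended on leaving out any of 5 of the 10 libraries (adjusted p = 0.0555 to 0.235), and the Baat call without female PFOA replicate 1 (0.106). In KO males 2 of 9 members were lower, Cyp7b1 and Baat as given above, against 9.1% of all genes. In KO females 0 of 9 were called by edgeR, against 5.31% of all genes, with an unadjusted p under 0.05 for 4 of them (Cyp2c70, Cyp39a1, Baat and Cyp27a1), at values of 0.66, −0.98, 0.41 and 0.61. DESeq2 called Cyp2c70 there (0.66, adjusted p = 0.0326; edgeR 0.0933). The vehicle arm of KO females is the 1 library with Y-linked transcripts and the highest cholangiocyte markers, so it has no spread of its own and is assumed to vary like the other groups.

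The difference of the PFOA effect between the sexes, males minus females, was tested directly. In KO livers this test rests on the single KO female vehicle library, which is assumed to vary like the other groups. There Baat was just past the threshold (−1.01 ± 0.18, adjusted p = 0.0494), 1 of 9 members against 0.241% of all genes. The call was lost on leaving out any other library in turn (adjusted p = 0.0685 to 0.122) and with the replicate number as a block (0.142). Cyp7b1 had −1.97 ± 0.35 (adjusted p = 0.0579). DESeq2 called it (7.18e-06), as did edgeR without KO female PFOA replicate 1 (0.0430) or KO male PFOA replicate 3 (0.0460). Cyp2c70 had −0.93 ± 0.25 (adjusted p = 0.199), and DESeq2 called it (0.0305). The rest were Cyp7a1 (−0.14 ± 1.47), Cyp8b1 (0.28 ± 0.85), Cyp27a1 (−0.50 ± 0.27), Cyp39a1 (0.43 ± 0.43), Slc27a5 (0.13 ± 0.26) and Akr1d1 (−0.16 ± 0.39). In hPPARa livers 0 of 9 members passed in edgeR, against 0.104% of all genes. An unadjusted p under 0.05 was found for 3 of them, Cyp27a1 (−0.81 ± 0.22), Slc27a5 (−0.70 ± 0.23) and Cyp2c70 (−0.74 ± 0.26), and DESeq2 called Cyp27a1 (adjusted p = 0.0485). The rest were Cyp7a1 (0.01 ± 1.37), Cyp8b1 (0.52 ± 0.78), Cyp7b1 (−1.39 ± 0.78), Cyp39a1 (−0.72 ± 0.53), Baat (−0.12 ± 0.19) and Akr1d1 (0.09 ± 0.31). Cyp27a1 had 257, 356 and 331 CPM in hPPARa males on PFOA and 424 and 425 CPM in males on vehicle, but 386 and 397 CPM in females on PFOA and 296, 342 and 262 CPM in females on vehicle. The PFOA libraries were below vehicle in males and above it in females.

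Between the sexes themselves, over both exposures, Cyp39a1 was lower in males in both genotypes. It had 1.98 to 14.2 CPM in hPPARa males and 13.2 to 47.2 CPM in hPPARa females (log2 fold change −2.21 ± 0.28, adjusted p = 0.00305), where 3.48% of all genes were called and Cyp39a1 was 1 of 9 members. In KO livers it had 2.63 to 5.61 CPM in males and 18.1 to 50.1 CPM in females (−3.07 ± 0.21, adjusted p = 2.75e-05), with no overlap, and −3.22 without the 3 libraries with transcripts of the other sex (adjusted p = 0.000414 for Cyp39a1 male against female in KO). Cyp7b1, whose liver level is known to be higher in male mice, was the other of 2 members called in KO livers, where 3.41% of all genes were called. It had 178 to 944 CPM in KO males and 52.7 to 74.7 CPM in KO females (2.23 ± 0.39, adjusted p = 0.0206), and the call ended without KO female PFOA replicate 1 (0.0606) or KO male PFOA replicate 3 (0.0536). Without the 3 libraries with transcripts of the other sex it was 1.8 (adjusted p = 0.0162 for Cyp7b1). In hPPARa livers it had 63.8 to 368 CPM in males and 31.8 to 61.7 CPM in females, and the log2 fold change of 2.0 ± 0.46 did not pass (adjusted p = 0.0602). DESeq2 called it (0.000699), as did edgeR without hPPARa male PFOA replicate 1 (0.0390). For the other 7 members the log2 fold change ran from −0.43 ± 0.17 (Akr1d1, adjusted p = 0.203) to 0.50 ± 0.38 (Cyp8b1, 0.515) in KO and from −0.38 ± 0.63 (Cyp7a1, 0.843) to 0.42 ± 0.38 (Cyp8b1, 0.662) in hPPARa livers.

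Among regulators of the pathway Fgfr4 was lower on PFOA in both genotypes, and Nr0b2 was higher in KO livers. In hPPARa livers 0 of 10 regulators were higher and 3 lower on PFOA, with a median of −0.13. Of all genes tested there 22.6% were called and 9.76% were lower. Fgfr4, the FGF15 receptor on hepatocytes, had 28.1 to 38.6 CPM on PFOA and 54.4 to 78.2 CPM on vehicle (log2 fold change −0.94 ± 0.11, adjusted p = 4.56e-05). Mafg (−0.46 ± 0.13, adjusted p = 0.0235), a repressor of bile acid genes downstream of FXR, and Prox1 (−0.30 ± 0.10, 0.0412), a co-repressor, were the other 2. In KO livers 2 were higher and 2 lower, where 13.8% of all genes were called. Fgfr4 had 28.6 to 52.2 CPM on PFOA and 57.3 to 77.9 CPM on vehicle (−0.92 ± 0.13, adjusted p = 0.000782), and Mafg was −0.48 ± 0.12 (0.0177). Nr0b2 had 36.4 to 72.1 CPM on PFOA and 12.9 to 28.1 CPM on vehicle (1.5 ± 0.23, adjusted p = 0.00223), without overlap, and Nr5a2, which activates Cyp7a1 and Cyp8b1, was 0.40 ± 0.10 (0.0139). Fgfr4 was still called without the 3 libraries (−1.07, adjusted p = 0.00811), and Nr0b2 (1.52, 0.0594), Mafg (−0.51, 0.176) and Nr5a2 (0.28, 0.251) were not. In hPPARa livers Nr0b2 had 26.1 to 114 CPM on PFOA and 17.1 to 52.6 CPM on vehicle (0.56 ± 0.52, adjusted p = 0.485), and the arms overlapped.

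The peroxisomal side-chain genes went the opposite way to the members in hPPARa livers. Of 8 such genes 6 were higher on PFOA and 0 lower, with a median log2 fold change of 0.72. Over all genes, 1847 of 14400 were higher on PFOA in hPPARa livers and 1137 of 15334 in KO livers. Abcd3, which carries the intermediates into peroxisomes, had 493 to 739 CPM on PFOA and 216 to 283 CPM on vehicle (1.19 ± 0.11, adjusted p = 1.01e-05). Hsd17b4 (0.92 ± 0.10), the bifunctional side-chain enzyme, Acot8 (0.91 ± 0.10), a peroxisomal thioesterase, and Slc27a2 (0.83 ± 0.11), which activates the intermediates, were also higher. In KO livers 2 of 8 were higher and 0 lower, with a median of 0.17: Hsd17b4 (0.62 ± 0.12, adjusted p = 0.00401) and Abcd3 (0.72 ± 0.14, 0.00544). Of these Abcd3 was called without the 3 libraries (0.83, adjusted p = 0.0387) and Hsd17b4 was not (0.53, 0.0914). The PFOA effect on Acot8 was smaller in KO than in hPPARa livers by the test of the difference itself (−0.92 ± 0.13, adjusted p = 0.00199), and it was the only one of the 8 that passed, also without the 3 libraries (−1.06, 0.00823). Acot8 had 5.88 to 8.07 CPM in KO and 16.4 to 22.3 CPM in hPPARa livers on PFOA.

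Of the bile acid transporters 5 of 13 tested were higher and 0 lower on PFOA in hPPARa livers, where 1847 of all 14400 genes were higher. Abcc3, which exports bile acid conjugates into blood, had 509 to 826 CPM on PFOA and 21.6 to 144 CPM on vehicle (3.66 ± 0.38, adjusted p = 0.000241). Abcc4, another exporter on the blood side, had 7.25 to 15.5 CPM on PFOA and 0.650 to 2.14 CPM on vehicle (3.09 ± 0.20, adjusted p = 3.39e-07). Both also rose in KO livers, Abcc3 by 3.01 ± 0.24 (adjusted p = 3.81e-05) and Abcc4 by 1.84 ± 0.30 (0.00189), among 4 of 14 that were higher there and 1 that was lower. Their values without the 3 libraries were 3.35 (adjusted p = 1.01e-05 for Abcc3) and 2.30 (0.0102 for Abcc4). Abcb4, the phospholipid exporter of the canaliculus, was higher in hPPARa livers (0.95 ± 0.10), and its response was smaller in KO (difference −0.70 ± 0.17, adjusted p = 0.0488), though not past the threshold without the 3 libraries (−0.40, 0.462). Of the sterol and redox partners, Por, the reductase that feeds electrons to microsomal P450 enzymes, was higher in KO livers (0.85 ± 0.14, adjusted p = 0.00199), as was Cyb5a (0.72 ± 0.13, 0.0037), and Scarb1, a receptor for HDL cholesterol, was lower (−0.74 ± 0.12, 0.0020). Of these Por was called without the 3 libraries (1.14, adjusted p = 0.00128), and Cyb5a (0.55, 0.0931) and Scarb1 (−0.53, 0.113) were not. In hPPARa livers Cyb5a was the only partner higher (0.38 ± 0.12, adjusted p = 0.0344), and Cyp46a1, given above, the only one lower.

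**Figure D4:**
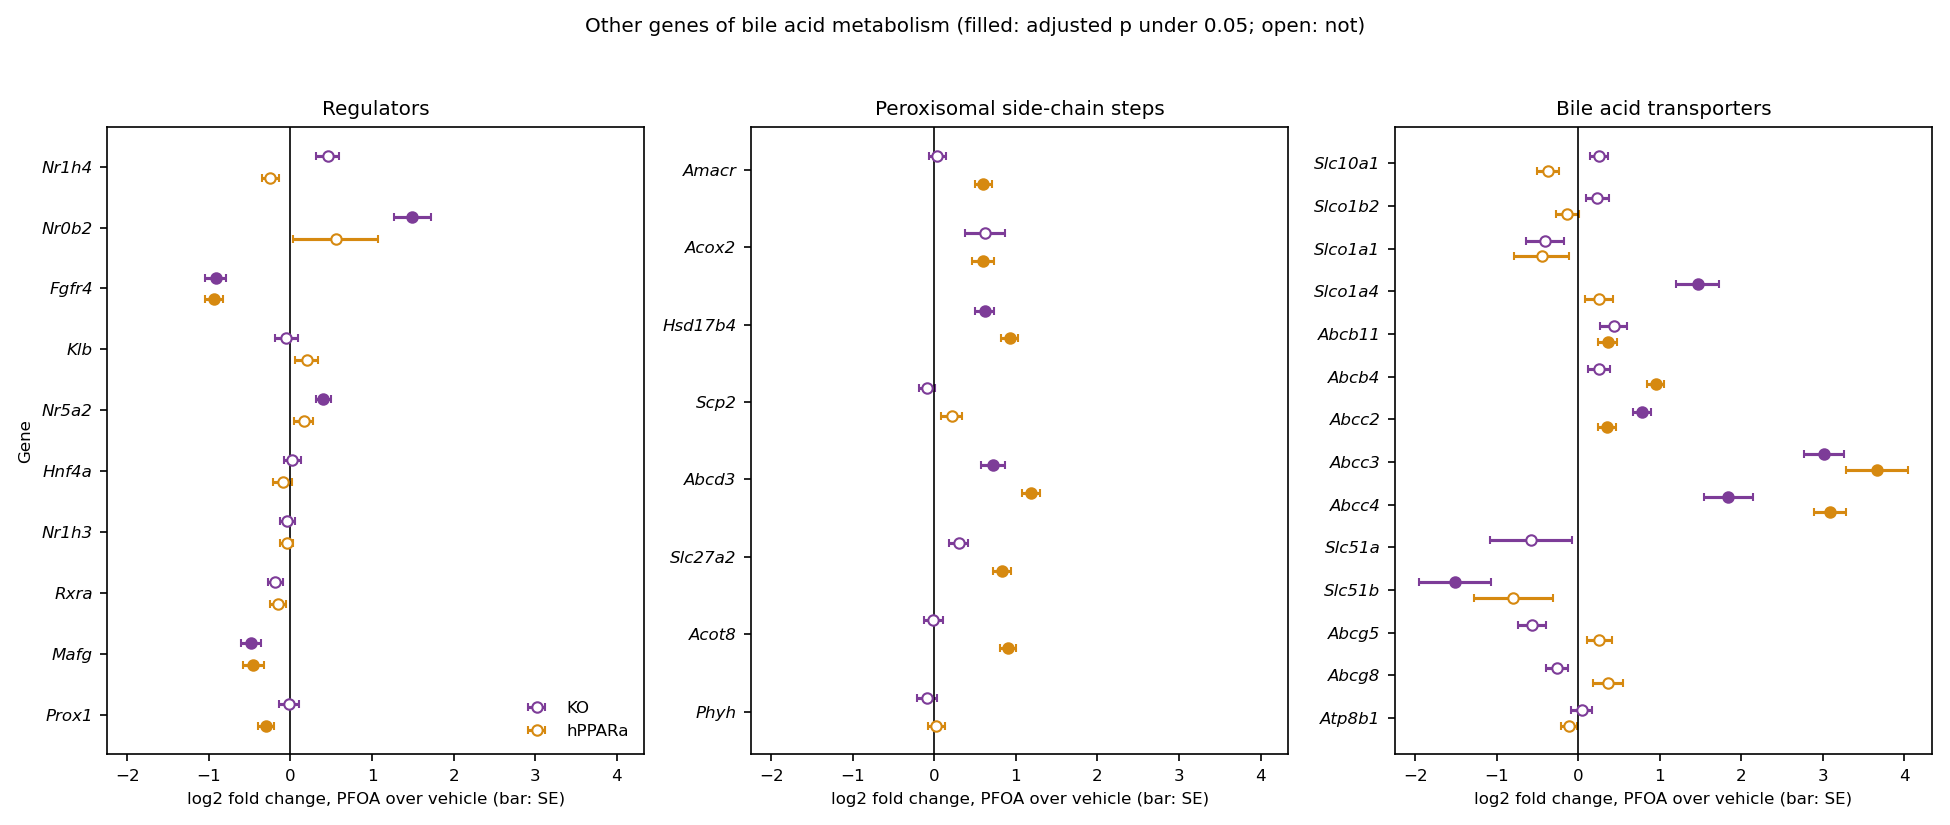
Log2 fold change, PFOA over vehicle, with its SE, for regulators, peroxisomal side-chain genes and transporters of bile acid metabolism in KO (purple) and hPPARa (orange) livers; filled points passed an adjusted p of 0.05. Abcc3 reached 3.66 in hPPARa and 3.01 in KO livers, and 6 of 8 peroxisomal genes are filled on the higher side in hPPARa.

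The genes whose log2 CPM was most like that of Cyp7a1 over the 20 libraries, among 11592 compared, were Abcc9 (Pearson r = 0.854), Idh3a (0.819), Ly75 (0.793), Akr1c20 (0.784) and Hand2 (0.783). Among the members, Akr1d1 was nearest (0.774, ninth in that order), and its r was 0.667 within the 10 KO libraries and 0.915 within the 10 hPPARa libraries. Cyp2c70 had 0.0404 within KO and 0.821 within hPPARa libraries, and Cyp8b1 had −0.0884 within KO and 0.462 within hPPARa libraries. These values describe libraries that share exposure and genotype groups, so a likeness can come from those groups alone.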

How the data were processed

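Per the labels' protocols, total RNA from bulk liver (integrity number above 7) was sequenced on a BGI platform. Per the submitters' processing notes, the tools were STAR 2.5.3, featureCounts 1.6.1, cutadapt 1.15, FastQC 0.11.5, edgeR 3.36.0 and R 4.1.0, and the build was GRCm39. No source used here gives their roles, the annotation release or whether counting used strand. The authors deposited raw whole-number counts per gene, in 1 table per genotype. The PFOA unit is written µm in the design text and was read as micromolar.

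Tests here used edgeR 4.0.16 under R 4.3.3 (TMM, default low-count filter by group, robust quasi-likelihood test, Benjamini-Hochberg adjustment over all genes tested, threshold 0.05). Models were exposure plus sex within a genotype, 4 groups within a genotype for effects within a sex, and a joint fit of 20 libraries between genotypes. The SE is the log2 fold change over the square root of F. DESeq2 1.42.0 was an alternative. The filter goes by the smallest group, 1 library in the KO and joint fits. The tests were checked on simulated data. Likeness used log2 CPM with a prior count of 2, for genes with a mean of at least 1 CPM.

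All 10 members were looked at in every comparison, Hsd3b7 having no counts to test. From each other list at most 4 genes with the smallest adjusted p, and for Cyp7a1 the 5 most alike genes, were named. A few others (Ly6g, Mpo, Fabp6, Fgf15, Vil1, Slc10a2, Fabp2, Alb, Clock, Ddx3y, Xist and the overlapping genes of Hsd3b7) were chosen after their values were seen. Members and lists were chosen with earlier results of these data known. Libraries of a group differed beyond counting noise (chi-square per gene 7.94 or more), so none was merged. Promoter windows are from RefSeq (GRCm38.p6).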

Additional observations from a re-analysis of the deposited data

Results flagged for a closer look

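Cyp39a1 was at 50.1 CPM in KO female vehicle replicate 1, far above the 5.61 CPM of the next KO vehicle library. The other 3 libraries of that arm are from males. Cyp2c70 was at 1029 CPM in hPPARa male vehicle replicate 2, where the next vehicle library had 731 CPM. These were the 2 high values found among 36 sets of libraries examined (9 members in 4 arms). Chance gives about 1 in 20 in sets of like libraries, but these sets mix the sexes. As Cyp39a1 was lower in KO males than in KO females over both exposures, its high value cannot be read against that rate. The test of the PFOA effect on Baat in KO males minus that in KO females gave −1.01 on the log2 scale and passed narrowly (adjusted p = 0.0494), against a vehicle arm of 1 female library. It did not pass in any of the 9 fits that left out another library, nor with the replicate block (0.142).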

How the results depend on the processing

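Of 1980 repeats of single-member results, 1889 kept their side of the threshold, 57 lost a call, 34 gained 1 and 0 reversed. A reversal was counted only where the result was called in at least 1 of the fits compared. Estimates called in neither did change sign in places, as for Cyp8b1 with PFOA in hPPARa males (log2 fold change −0.32 to 0.53 over the repeats). Counts of members called changed as follows. With PFOA in KO the count was 2, against 1 without the low-count filter and 0 in the joint fit. For PFOA by genotype it was 0, against 1 with DESeq2 and 1 without the filter, and for KO against hPPARa on vehicle 0, against 1 with DESeq2. Within hPPARa females it was 3, against 5 without the filter, and within KO females 0, against 1 with DESeq2 and 3 without the filter. PFOA by sex gave 0 in hPPARa, against 1 with DESeq2 and 3 without the filter, and 1 in KO, against 3 with either. Male against female in hPPARa gave 1, against 2 with DESeq2. Without the filter Cyp7a1 with PFOA in hPPARa lost its call (adjusted p = 0.109), as when the sexes were weighted equally (0.0703), and so did Cyp7b1 in KO (0.125; 0.0661 in the joint fit, where Cyp39a1 had 0.0750). The cause was not tested. Leaving out 1 library in turn gave 3 to 5 members for PFOA in hPPARa, 0 to 2 in KO, 0 to 1 for KO against hPPARa on vehicle, 1 to 4 in hPPARa males, 0 to 4 in hPPARa females, 0 to 1 in KO females, 0 to 1 for PFOA by sex in KO, and 1 to 2 for male against female in each genotype. The counts could not be run for PFOA in KO females or PFOA by sex in KO without the only female vehicle library, and so not without the 3 libraries named below.

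Over all genes, PFOA in KO gave 2113 calls, against 630 without the 3 libraries with transcripts of the other sex, and PFOA by genotype 185, against 421 with DESeq2, 545 without the filter and 39 without those 3 libraries. KO against hPPARa on vehicle gave 596, against 920, 1013 and 195 under the same changes. PFOA in KO males gave 1395, against 630 without those libraries, and in KO females 814, against 1490 without the filter and 396 with the block. PFOA by sex gave 15 in hPPARa, against 138 with DESeq2 and 323 without the filter, and 37 in KO, against 163 and 381. Male against female gave 501 in hPPARa, against 927 and 1088, and 523 in KO, against 930, 1322 and, without the 3 libraries, 94. Leaving out 1 library gave 1905 to 3889 genes for PFOA in hPPARa, which otherwise gave 3253, 1401 to 2129 in KO, 468 to 1320 in hPPARa males (1181 with all), 796 to 3242 in hPPARa females (2644), 635 to 1503 in KO males, 67 to 239 by genotype, 351 to 701 for KO against hPPARa on vehicle, 4 to 27 and 8 to 32 by sex in hPPARa and KO, and 255 to 686 and 127 to 609 for male against female in hPPARa and KO. The median over all genes moved by under 0.1 with either other scaling.

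No pairing by replicate number was seen: same-numbered libraries had correlations of their deviations of −0.057 to 0.0984 in hPPARa and −0.142 to 0.0217 in KO. The deviations were taken from the means of very small groups, which ties them to each other. This check could therefore hardly show a pairing and does not exclude one. With the replicate number as a block, PFOA by sex in KO called 0 members (Baat −0.91, adjusted p = 0.142), 10 genes in all, and male against female in KO 206 genes. Each member with counts had at least 32 counts in every library, and the smallest group is 1 library.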
